A study of Ovis aries with 15 samples.

Results

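The cytosolic ribosomal proteins were described across 15 ruminal epithelium libraries of 3 groups, HP, HG and CON, with 5 libraries each. Members were taken by gene name: RPL or RPS followed by digits and at most a closing A, X, L or L1, together with RPLP0, RPLP1, RPLP2 and RPSA, and without the RPS6K kinases. This gave 79 of the 19304 genes in the tables, 47 of the large and 32 of the small subunit, under 77 symbols, because RPL10 and RPS26 each had 2 entries. All libraries came from male Hu lambs aged 6 months and from total RNA of frozen ruminal epithelium. The sample labels give only the group codes. According to the series title, high-grain diets were fed with or without pelleting. HP was therefore read as the pelleted high-grain diet, HG as the high-grain diet without pelleting, and CON as the control diet. The labels do not say that each library came from a separate lamb, so p-values measure the spread between libraries.

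The cytosolic ribosome is built from a small subunit, which holds the mRNA and reads its codons, and a large subunit, which joins the amino acids and releases the growing chain through a tunnel. Each ribosome carries a single copy of nearly every one of these proteins, with the P stalk proteins RPLP1 and RPLP2 as the known exception, and their mRNAs share a pyrimidine tract at the start that places their translation under the control of the kinase mTORC1. The ruminal epithelium is a stratified squamous epithelium that absorbs short-chain fatty acids and renews itself from a basal layer.

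Depth could not be read from these tables, since FPKM are already scaled for depth and length, and 0 pairs of libraries held identical values. KRT5, the keratin of the basal layer, was listed at 656 to 1798 FPKM in HP, 1055 to 2149.8 FPKM in HG and 1133 to 2382 FPKM in CON, and the summed level of 8 basal keratinocyte markers with an entry, of 10 listed, was 1358 to 3308 FPKM in HP, 2386 to 2964 FPKM in HG and 2021 to 3223 FPKM in CON. KRT14 was not analysed here. Of 10 smooth muscle markers, 9 had an entry, and their summed level was 188 to 3217 FPKM in HP with HP5 highest, 213 to 5428 FPKM in HG with HG2 and HG3 highest, and 185 to 1675 FPKM in CON with CON1 highest. The sum of 8 fibroblast markers, all with an entry, was 942 to 1651 FPKM in HP, 1097 to 1855 FPKM in HG and 677 to 1165 FPKM in CON. CON1 and CON3 stood apart: their median FPKM over the genes tested was 5.19 and 4.17, against 6.06 to 7.46 in the other 13 libraries, and 1850 and 2269 genes were listed at 0 in them, against 1048 to 1589. The part of fibroblast RNA and of library quality in the results was not tested. In bulk tissue, fewer cells of a type and less RNA per cell cannot be told apart.

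Ribosomal protein genes were among the most abundant transcripts of the tissue. Over all 15 libraries, 56 of the 79 members averaged at least 1000 FPKM, 17 lay between 100 and 1000, 4 between 10 and 100 and 2 below 10, and members made up 57 of the 100 genes with the highest mean FPKM. The median of the members' means was 1401 FPKM for the large and 1839.8 FPKM for the small subunit. By the mean of all libraries the highest member was RPS2, a protein at the mRNA entry of the small subunit, with 4359 ± 998 FPKM in HP, 4654 ± 445 FPKM in HG and 4994 ± 932 FPKM in CON (SD, n = 5 each, as for all such values below). In the large subunit, RPL31 at the tunnel exit led with 3328 ± 782 FPKM in HP, 3370.3 ± 418 FPKM in HG and 4984 ± 1831 FPKM in CON, ahead of RPL23A, the tunnel exit protein next to the docking site of the signal recognition particle, and of RPLP1 of the P stalk.

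A few members were far below the rest although every ribosome needs the protein. RPS15A, a core protein of the small subunit, was listed at 3.33, 2.40, 2.78, 8.57 and 3.46 FPKM in HP, 7.94, 3.22, 2.71, 3.07 and 2.15 FPKM in HG and 2.35, 2.17, 3.74, 2.12 and 3.14 FPKM in CON. RPL27A, a large subunit protein, was listed at 0.522, 0.194, 0.300, 1.05 and 0.509 FPKM in HP, 0.360, 0.658, 0.432, 0.247 and 0.481 FPKM in HG and 0.573, 0.440, 0.180, 1.48 and 0.465 FPKM in CON and was the single member that did not reach the filter of 1 FPKM in 5 libraries, which left 78 members for testing. An entry named LOC101123279, which RefSeq (assembly ARS-UI_Ramb_v3.0, used for names) lists as RPL27A, was at 1970.0 ± 488 FPKM in HP, 1919 ± 125 FPKM in HG and 2509 ± 612 FPKM in CON. RPL10, which joins the large subunit late in its assembly, had a main entry at 1576 FPKM in HP, 1776 FPKM in HG and 1876 FPKM in CON and a minor entry (gene5860) at 21.03 FPKM in HP, 29.8 FPKM in HG and 46.6 FPKM in CON. RPS26, at the mRNA exit, likewise had a main entry at 1745 FPKM in HP, 1756 FPKM in HG and 2815 FPKM in CON and a minor entry (gene7315) at 93.3 FPKM in HP, 88.8 FPKM in HG and 166 FPKM in CON. Ribosomal protein genes have many near-identical processed copies in mammalian genomes, so how reads were shared between copies is uncertain for every member. RPL10L, RPL37A, RPL3L and RPS28 were not analysed here.

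All members together took 23.04 ± 2.96% of the summed FPKM in HP, 23.8 ± 0.759% in HG and 27.2 ± 3.78% in CON. By library the share was 26.1%, 22.8%, 18.4%, 24.995% and 22.96% in HP, 25.2%, 23.5%, 23.3%, 23.8% and 23.5% in HG, and 29.8%, 24.1%, 32.5%, 23.9% and 25.7% in CON. The groups overlapped: HP3 was the lowest library, CON3 and CON1 were the highest, and the other 3 CON libraries lay within the range of HP. The mean difference was -4.14 percentage points for HP against CON, -3.34 for HG against CON and -0.80 for HP against HG, and without CON1 and CON3 the CON mean was 24.6%, which left -1.52 points for HP and -0.72 points for HG against CON. As a score over the members, the share was given no test.

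**Figure D1:**
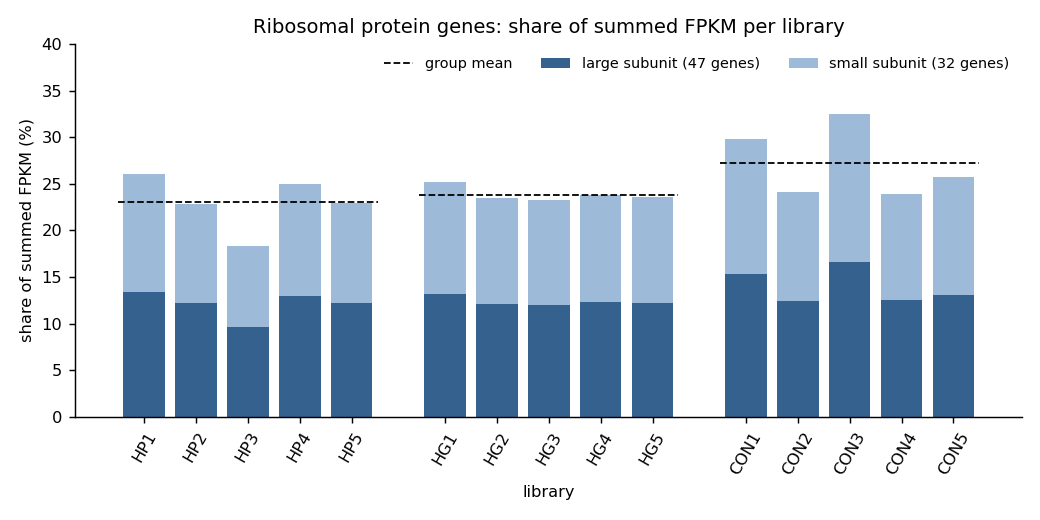
Share of each library's summed FPKM (%) taken by the large subunit (dark) and small subunit (light) ribosomal protein genes, with the dashed line at the mean of the 5 libraries of each group. CON1 (29.8%) and CON3 (32.5%) stand above all other libraries and HP3 (18.4%) below them.

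Both subunits carried the difference. The large subunit took 12.1 ± 1.44% of summed FPKM in HP, 12.4 ± 0.451% in HG and 13.97 ± 1.87% in CON, and the small subunit took 10.98 ± 1.55% in HP, 11.5 ± 0.311% in HG and 13.2 ± 1.92% in CON. The ratio of large to small subunit FPKM was 1.10 ± 0.0418 in HP, 1.08 ± 0.0118 in HG and 1.06 ± 0.0223 in CON, with HP2 highest at 1.15 and CON5 lowest at 1.03. Group means differed by at most 0.04, and the ranges of the 3 groups overlapped.

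No ribosomal protein gene passed the test in either high-grain diet, but nearly all had lower mean log2 levels than in CON. With limma on log2(FPKM + 1) over 13084 genes and Benjamini-Hochberg adjustment, 0 of 78 members had an adjusted p under 0.05 in HP against CON (0.0153% of all genes, 2 genes) and 0 of 78 in HG against CON (0% of all genes). At an unadjusted p under 0.05, 46 of 78 members were lower and 0 higher in HP against CON, where 5.24% of all genes were lower and 22.6% higher. In HG against CON, 32 of 78 were lower and 0 higher, where 5.5% of all genes were lower and 21.8% higher. Fold changes were negative for 76 of 78 members in each comparison, against 31% of all genes in HP and 30.8% in HG. The median log2 fold change of the members was -0.45 in HP against CON, where all genes had a median of 0.18, and -0.38 in HG against CON, where all genes had a median of 0.17. The 5 CON libraries serve in both comparisons, so the resemblance of these values is no independent repeat.

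The counts depended on single libraries. Without CON1 and CON3, 8 members in HP and 9 in HG were lower at an unadjusted p under 0.05, with 2.9% of all genes lower in HP and 3.97% in HG, and with median log2 fold changes of -0.19 in HP and -0.12 in HG. The number of negative fold changes fell as well, to 69 of 78 members in HP and 53 of 78 in HG. After quantile normalization of all 15 libraries it was 55 in HP and 46 in HG. Without CON2, the fit called 28 members in HP against CON and 24 in HG against CON at an adjusted p under 0.05, all lower, while 0 were called when any other single library was left out. The fit without CON2 also called 1834 of all genes higher and 331 lower in HP (14% and 2.53%) and 1825 higher and 384 lower in HG (13.9% and 2.93%). Without CON1, HG2, HG3 and HP5, the libraries with the most smooth muscle RNA, 14 members in HP and 7 in HG were lower at an unadjusted p under 0.05, where 2.8% of all genes were lower in HP and 1.9% in HG, and 0 members were called. After quantile normalization, which forces 1 distribution on all libraries, 18 members were lower and 2 higher in HP, and 17 lower and 6 higher in HG at an unadjusted p under 0.05, with medians of -0.11 in HP and -0.08 in HG. Under that normalization 10.2% of all genes were lower and 11.3% higher in HP, and 12% lower and 11.6% higher in HG.

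**Figure D2:**
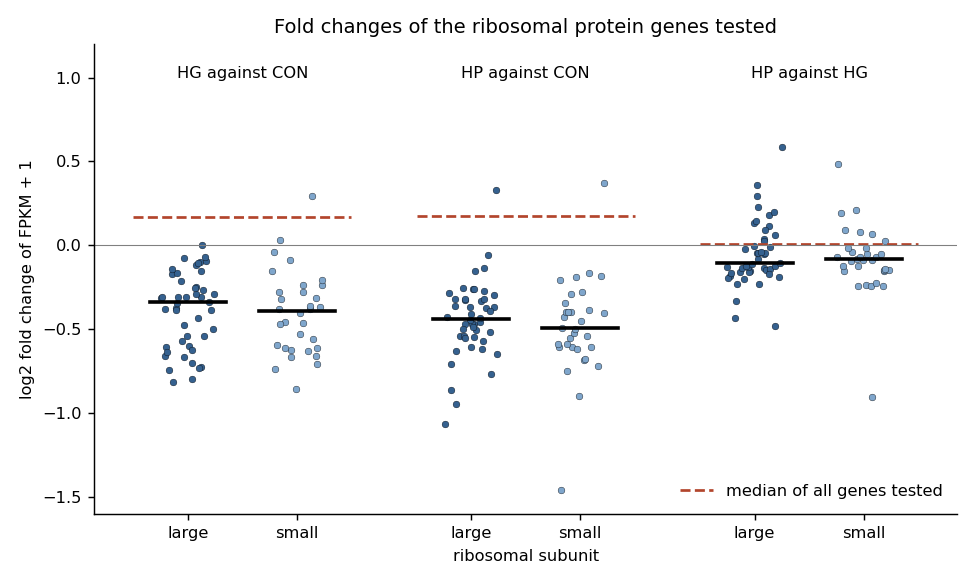
Log2 fold change of FPKM + 1 (limma) for the 46 large subunit (dark) and 32 small subunit (light) members tested in each comparison, 1 point per gene, with a black bar at the median of each subunit and a dashed line at the median of all genes tested. Nearly all points of the comparisons with CON lie below 0, with medians of -0.34 to -0.49. Those of HP against HG lie on both sides of 0, with 58 of 78 below it and medians of -0.11 (large) and -0.08 (small).

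Both subunits contributed to these counts. For the large subunit, 26 of 46 members were lower at an unadjusted p under 0.05 in HP and 17 of 46 in HG against CON, with median log2 fold changes of -0.44 in HP and -0.34 in HG. For the small subunit, 20 of 32 were lower in HP and 15 of 32 in HG, with medians of -0.49 in HP and -0.39 in HG. Across functional sites, median log2 fold changes against CON were -0.59 in HP and -0.53 in HG for the 3 proteins of the small subunit beak (RPS10, RPS12, RPS27A), -0.45 in HP and -0.23 in HG for 7 proteins along the mRNA channel, and -0.42 in HP and -0.31 in HG for 7 around the exit tunnel. They were -0.40 in HP and -0.28 in HG for the P stalk and its base (RPLP0, RPLP1, RPLP2, RPL12), -0.35 in HP and -0.30 in HG for the partners of 5S rRNA (RPL5, RPL11), and -0.25 in HP and -0.07 in HG for 3 proteins near the peptidyl transferase centre (RPL3, RPL8, RPL10). These site groups were not tested against each other.

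Among large subunit members, the smallest p in HP against CON belonged to RPL37, a zinc-binding protein. RPL37 was at 1171, 692, 589, 1012 and 824 FPKM in HP, 972, 972, 833, 1025 and 992 FPKM in HG and 1571, 979, 3014, 1358 and 1686 FPKM in CON. CON2 lay within HP and HG, the other 4 CON libraries lay above all of both, and CON3 was far above the rest. Its log2 fold change was -0.95 ± 0.25 (SE, limma adjusted p = 0.0991) in HP against CON and -0.75 ± 0.25 (SE, limma adjusted p = 0.0912) in HG against CON. RPL23, which lies where the subunits meet, was at 1907, 1632, 1108, 1736 and 1453 FPKM in HP, 1907, 1679, 1543, 1789.8 and 1926 FPKM in HG and 2810.2, 1744, 4187, 2317 and 2606 FPKM in CON. Again CON2 alone overlapped the other groups, and the log2 fold change was -0.77 ± 0.20 (SE, limma adjusted p = 0.0991) in HP and -0.57 ± 0.20 (SE, limma adjusted p = 0.102) in HG against CON.

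In HG against CON, the groups did not overlap for 8 of 78 members, all lower in HG, where 1.13% of all genes were lower without overlap: RPL26, RPL7L1, RPL32, RPL12, RPL10A, RPS21, RPS25 and the minor RPS26 entry. RPL26, a tunnel exit protein that also binds p53 mRNA in human cells, was at 849.6, 889, 437, 691 and 559 FPKM in HP, 741, 579, 475, 454 and 692 FPKM in HG and 1064, 779, 1529.7, 823 and 1036 FPKM in CON. All 5 HG libraries lay below all CON libraries, whereas HP1 and HP2 reached into the CON range. The log2 fold change was -0.81 ± 0.23 (SE, limma adjusted p = 0.0779) in HG and -0.62 ± 0.23 (SE, limma adjusted p = 0.115) in HP against CON. In HP against CON the groups failed to overlap for 1 of 78 members, RPL22L1, where 0.825% of all genes were lower without overlap.

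The 4 members named as relatives of another ribosomal protein were all at low levels and had lower means in HP and HG than in CON. Relative to the other members, the log2 difference of HP from CON was 0.09 ± 0.18 for RPL7L1 and 0.06 ± 0.15 for RPS27L (SE), smaller than its error in both. It was -0.25 ± 0.17 for RPL22L1 and -0.10 ± 0.19 for RPL26L1. The difference of HG from CON was negative for all of them: RPL7L1 -0.15 ± 0.18, RPS27L -0.20 ± 0.15, RPL22L1 -0.31 ± 0.17 and RPL26L1 -0.28 ± 0.19. RPL22L1, the paralogue of RPL22, was at 125, 108, 77.95, 132 and 117 FPKM in HP, 83.1, 156, 105, 115 and 107 FPKM in HG and 196, 166, 282, 136 and 153 FPKM in CON. Every HP library lay below every CON library, and in HG only HG2 lay within the CON range. Its log2 fold change was -0.71 ± 0.21 (SE, limma adjusted p = 0.0991) in HP and -0.70 ± 0.21 (SE, limma adjusted p = 0.0804) in HG against CON. RPL26L1, nearly identical to RPL26, averaged 15.7 ± 2.74 FPKM in HP, 14.4 ± 2.03 FPKM in HG and 23.5 ± 4.85 FPKM in CON, and had the smallest p of all members in HG against CON, with a log2 fold change of -0.66 ± 0.16 (SE, limma adjusted p = 0.0779). RPL7L1, which takes part in making the subunits, averaged 46.03 ± 6.37 FPKM in HP, 40.8 ± 8.29 FPKM in HG and 59.4 ± 8.98 FPKM in CON, with log2 fold changes of -0.36 in HP and -0.54 in HG against CON. RPS27L, a p53 target in human cells and the relative of RPS27, averaged 87.1 ± 21.9 FPKM in HP, 75.1 ± 13.3 FPKM in HG and 115 ± 29.2 FPKM in CON, with log2 fold changes of -0.40 in HP and -0.59 in HG.

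In the small subunit, RPS23, a decoding centre protein, was at 961, 745, 546, 739 and 668 FPKM in HP, 761, 678, 712, 636 and 871 FPKM in HG and 1356, 821, 1905, 1069.8 and 1151 FPKM in CON. HP1 and HG5 reached above CON2, and the other libraries of both groups lay below all of CON. The log2 fold change was -0.75 ± 0.20 (SE, limma adjusted p = 0.0991) in HP and -0.74 ± 0.20 (SE, limma adjusted p = 0.0779) in HG against CON. RPS21, a neighbour of RPSA on the small subunit, was at 1296, 931, 696, 1104 and 996 FPKM in HP, 1048, 943, 944, 1143 and 1193 FPKM in HG and 1732, 1196, 2234, 1349 and 1790.1 FPKM in CON. HG lay below CON in all libraries, while HP1 exceeded CON2. The log2 fold change was -0.72 ± 0.19 (SE, limma adjusted p = 0.0991) in HP and -0.63 ± 0.19 (SE, limma adjusted p = 0.0804) in HG against CON.

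RPS4X, the X-linked form of RPS4, was at 959.8, 837, 599, 807 and 772 FPKM in HP, 571, 700.3, 636, 698 and 811 FPKM in HG and 1201, 773, 1659.9, 894 and 1205 FPKM in CON. CON2 lay within HP and just below HG5, and CON4 lay below HP1. The log2 fold change was -0.71 ± 0.19 (SE, limma adjusted p = 0.0779) in HG and -0.49 ± 0.19 (SE, limma adjusted p = 0.124) in HP against CON. RPS12, of the beak, averaged 1946 ± 271 FPKM in HP, 1845 ± 155 FPKM in HG and 3032 ± 1030.0 FPKM in CON, with log2 fold changes of -0.59 in HP and -0.66 in HG. RPS29, a small zinc-binding protein of the head, averaged 2122 ± 555 FPKM in HP, 2464 ± 432 FPKM in HG and 3144 ± 358 FPKM in CON, with log2 fold changes of -0.60 in HP and -0.36 in HG. The minor RPS26 entry was at 151, 50.5, 56.3, 103 and 106 FPKM in HP, 106, 93.4, 83.6, 77.6 and 83.9 FPKM in HG and 178, 114, 216, 129.5 and 191 FPKM in CON, and again only HP1 entered the CON range. The main RPS26 entry had log2 fold changes of -0.68 in HP and -0.63 in HG against CON.

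**Figure D3:**
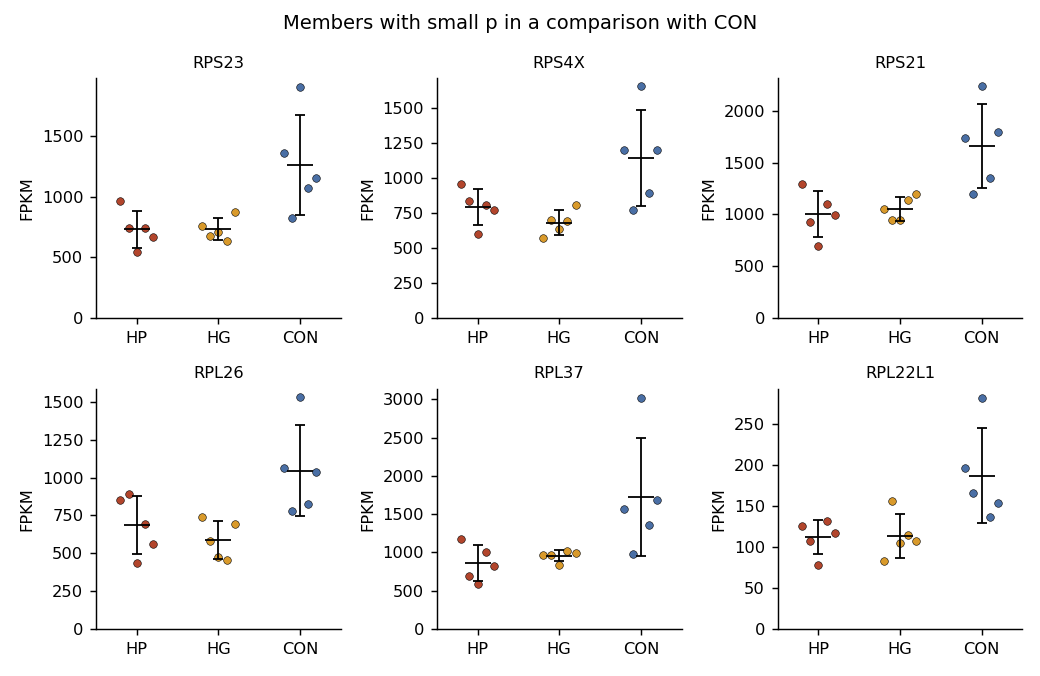
FPKM of 6 members with small p in a comparison with CON, 1 point per library (n = 5 per group), with the mean and SD. In each panel CON3 is the highest point, and for RPL26 and RPS21 all HG libraries lie below all CON libraries.

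Members with known further roles were followed as well. RPS6, the S6 kinase substrate, averaged 1579.9 ± 343 FPKM in HP, 1457 ± 90.97 FPKM in HG and 1948 ± 599 FPKM in CON, with log2 fold changes of -0.28 in HP and -0.37 in HG against CON. RPSA, the laminin receptor precursor, averaged 2396 ± 750.5 FPKM in HP, 2516 ± 235 FPKM in HG and 2629.6 ± 578 FPKM in CON, with log2 fold changes of -0.16 in HP and -0.04 in HG. Relative to the other members, the log2 difference from CON was 0.18 ± 0.10 in HP and 0.03 ± 0.10 in HG for RPS6 (SE). For RPSA it was 0.30 ± 0.15 in HP and 0.35 ± 0.15 in HG (SE). RPLP0, the scaffold of the P stalk and a common reference gene in qPCR, was at 2816, 1899, 1747, 2461 and 2244 FPKM in HP, 2533, 2377, 2498, 2296 and 2385 FPKM in HG and 3012, 2193, 2955, 2046 and 2063 FPKM in CON. These 3 groups overlapped widely, and the log2 fold change of RPLP0 was -0.13 ± 0.16 in HP and 0.00 ± 0.16 in HG against CON (SE). Its partners in the stalk had log2 fold changes of -0.32 in HP and -0.21 in HG for RPLP1, and -0.50 in HP and -0.34 in HG for RPLP2.

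Between the pelleted and the non-pelleted diet, few differences were seen. The limma fit called 0 of 78 members in HP against HG, as it did 0% of all genes, with 0 members lower and 1 higher at an unadjusted p under 0.05 (1.02% and 1.09% of all genes) and 0 without overlap (0.199% of all genes were lower without overlap). The median log2 fold change was -0.09, with 0.01 for all genes, and 58 of 78 members had negative values, against 48.8% of all genes. HP3 carried that median, which was 0.03 without it. The 1 member with an unadjusted p under 0.05 was RPL15, with a log2 fold change of 0.58 ± 0.27 (SE, limma adjusted p = 0.999). RPL36, of the large subunit, was at 1723, 726, 918, 1193 and 1084 FPKM in HP and 1486, 1389.8, 1380.4, 1706 and 1374 FPKM in HG, with a log2 fold change of -0.43 ± 0.21 (SE, limma adjusted p = 0.999). HP1 was the highest of these 10 libraries and the other 4 HP libraries were below all of HG. RPL34, of the large subunit, had a log2 fold change of 0.36, and RPS14, a platform protein, had -0.24.

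Many members had their highest and lowest values in the same libraries. CON3 held the highest value of 61 of the 78 members tested and CON1 that of another 10, and HP3 held the lowest value of 56 and HP2 of 10. Of the 3 group means, CON was the highest for 75 members, and the lowest was HP for 54 and HG for 23. The summed FPKM of all genes was also highest in CON3, at 644334, and lowest in HP3, at 442682. Once each member was expressed relative to the geometric mean of all 78, its SD over the 15 libraries had a median of 0.17 on the log2 scale, against 0.36 for the unscaled FPKM. Some fall is built in, because that mean was taken over the same 78 members. The same figures for all genes are not given here. RPL11 followed the common level closely, with an SD of 0.0597, and 48 members were under 0.2. These figures describe the libraries, which share the tissue and a common level of all members.

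Relative to the other members, limma again called 0 of 78 in each comparison, with smallest adjusted p-values of 0.0529 in HP against CON, 0.0696 in HG against CON and 1.00 in HP against HG. Of all 13084 genes, limma with this scaling called 1 in HP against CON, 1 in HG against CON and 0 in HP against HG. At an unadjusted p under 0.05, 46.9% of all genes were higher and 0.405% lower in HP against CON. In HG against CON these shares were 38.3% and 0.451%. Of the 78 members, 5 were higher and 7 lower in HP, and 14 higher and 13 lower in HG. RPLP0 stood higher within the set, by 0.32 ± 0.10 in HP and 0.39 ± 0.10 in HG against CON (log2, SE). RPL37 stood lower, by -0.49 ± 0.13 in HP and -0.35 ± 0.13 in HG, and RPS23 by -0.29 ± 0.11 in HP and -0.34 ± 0.11 in HG. RPS9, of the small subunit body, was relatively higher in HG against CON by 0.43 ± 0.13. The mix of members departed most from the average in CON3 and HP2, with mean absolute log2 deviations of 0.275 and 0.253, against 0.123 to 0.209 in the other libraries.

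**Figure D4:**
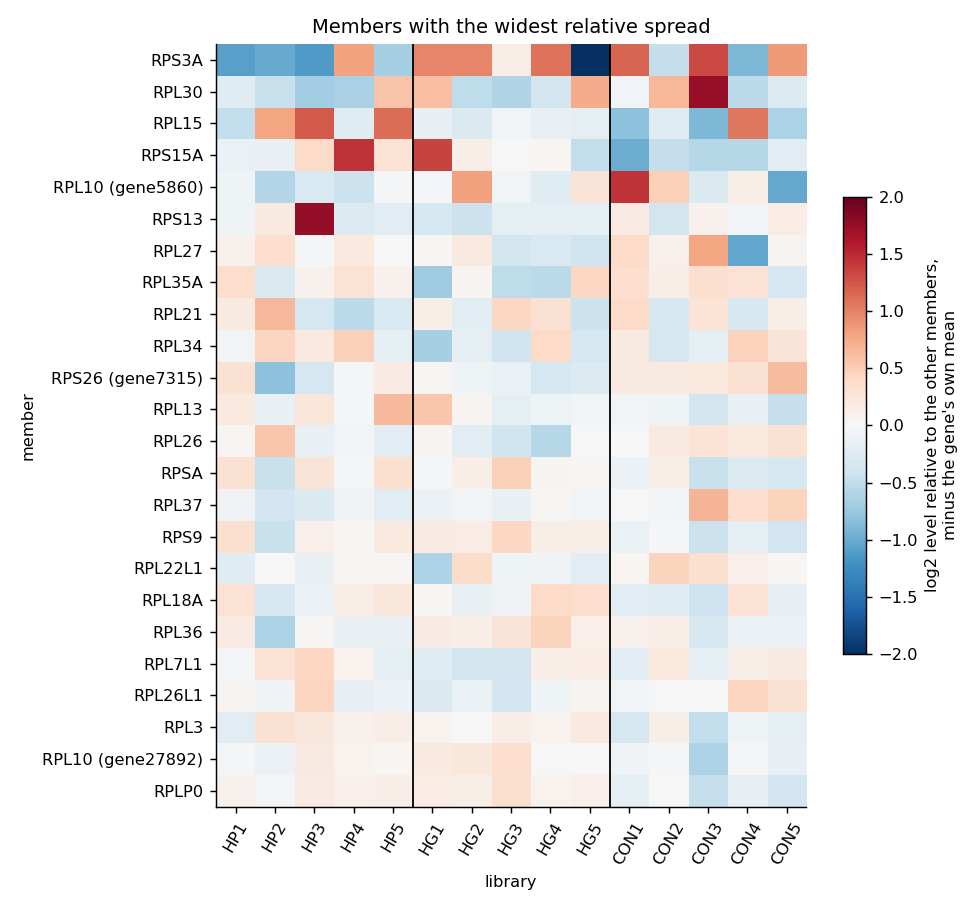
Colour gives the log2 level of a member relative to the geometric mean of all members tested, minus that gene's own mean over the 15 libraries, for the 24 members with the widest spread (rows) in each library (columns, with black lines between HP, HG and CON). RPS3A varies most, RPL30 stands out in CON3 and RPS13 in HP3.

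A handful of members left the common pattern, with relative SDs above 0.5 for 6 of 78, and RPS3A, RPL30 and RPS15A among them were chosen for description after their values were seen. RPS3A, near the mRNA exit, had the widest spread with an SD of 1.09 and was at 210.0, 162, 119, 671 and 219 FPKM in HP, 747, 715, 365, 775 and 90.8 FPKM in HG and 1278, 263, 1703, 205 and 811 FPKM in CON. Low and high libraries occurred in every group, CON3 being highest and HG5 lowest. RPL30, a small RNA-binding protein of the large subunit, was at 464, 296, 196, 302 and 636 FPKM in HP, 716, 316, 271, 347 and 763 FPKM in HG and 679.6, 721, 2805, 329.9 and 456 FPKM in CON. CON3 alone was far above the rest, and the other 14 libraries overlapped. RPL15, a large subunit protein, was at 428, 762, 819.9, 439 and 1012 FPKM in HP, 459, 404, 434, 443 and 438 FPKM in HG and 439, 418, 492, 1072 and 389 FPKM in CON. HP2, HP3, HP5 and CON4 formed a high set, and the remaining 11 libraries lay within 389 to 492 FPKM.

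RPS13, which lies where the subunits meet, was at 243, 214, 508, 185 and 174 FPKM in HP, 174, 156, 169, 183 and 188 FPKM in HG and 373, 165, 418, 214 and 289 FPKM in CON. HP3 was the highest of all libraries for RPS13, although it was the lowest for 56 other members. The log2 fold changes of these genes against CON were -1.46 in HP and -0.56 in HG for RPS3A, -1.06 in HP and -0.73 in HG for RPL30, 0.33 in HP and -0.25 in HG for RPL15, and -0.18 in HP and -0.66 in HG for RPS13. RPS15A and RPL15 were the 2 members with a higher mean log2 level in HP than in CON. RPS15A and RPS9 were the 2 with a higher one in HG than in CON, by 0.29 and 0.03. RPS15A was at low levels, with 1 library standing out in each high-grain group. These were HP4 at 8.57 FPKM (others in HP 2.40 to 3.46) and HG1 at 7.94 FPKM (others in HG 2.15 to 3.22). Its limma adjusted p against CON was 0.409 in HP and 0.533 in HG.

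**Figure D5:**
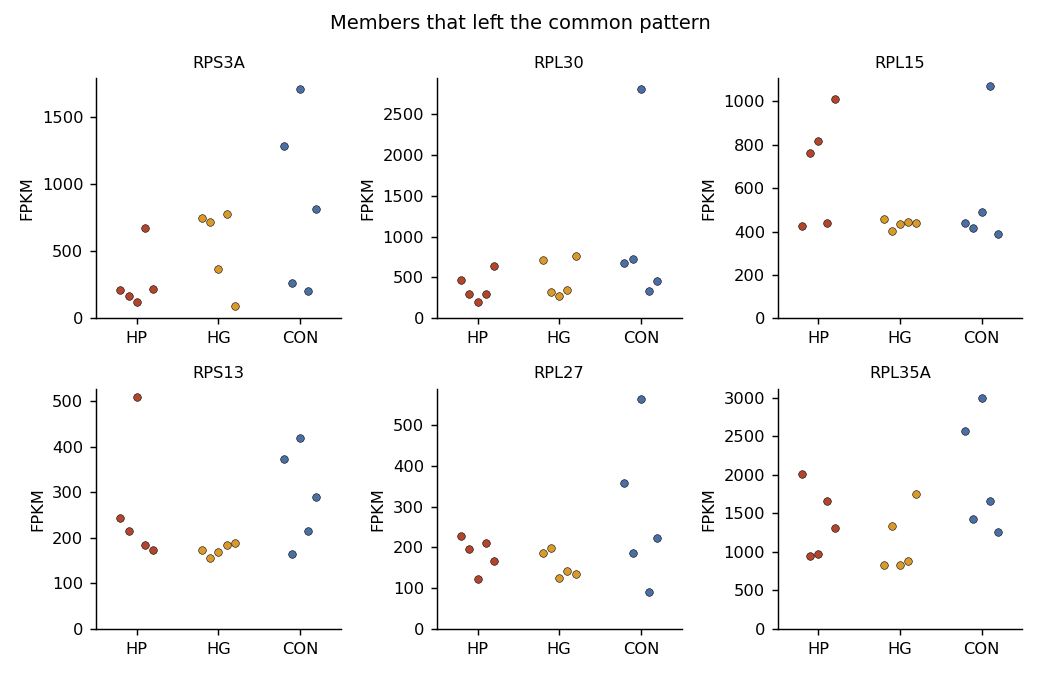
FPKM of 6 members with a wide relative spread, 1 point per library (n = 5 per group). RPL30 has 1 high library in CON, RPS13 1 in HP, and RPL15 3 in HP and 1 in CON, while the HG libraries of RPL15 and RPS13 lie close together.

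Of the ribosomal components whose names fall outside the naming rule, 4 of 6 had an entry. FAU, which encodes RPS30 fused to a ubiquitin-like protein, averaged 1764 ± 265 FPKM in HP, 1942 ± 178 FPKM in HG and 2529.7 ± 669.9 FPKM in CON. GNB2L1, the older symbol of the 40S scaffold protein RACK1, averaged 1925 ± 243 FPKM in HP, 2173 ± 162 FPKM in HG and 2267 ± 318 FPKM in CON, and RPL36AL, a relative of RPL36A, averaged 481 ± 107 FPKM in HP, 479 ± 32.3 FPKM in HG and 718 ± 279 FPKM in CON. FAU, GNB2L1 and RPL36AL had negative log2 fold changes in each of the 2 comparisons with CON, of -0.52 to -0.24 in HP and -0.51 to -0.05 in HG against CON, and limma called 0.

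Other transcripts with a start tract like that of the ribosomal proteins did not share one direction. Of 18 such entries tested, limma called 0 in each comparison, and at an unadjusted p under 0.05, 2 were higher and 3 lower in HP against CON, and 2 higher and 4 lower in HG. These are 11.1% higher and 16.7% lower in HP and 11.1% higher and 22.2% lower in HG, beside 22.6% higher and 5.24% lower in HP and 21.8% higher and 5.5% lower in HG for all genes. EEF2, the elongation factor of translocation, averaged 439 ± 72.1 FPKM in HP, 434 ± 46.7 FPKM in HG and 305 ± 52.3 FPKM in CON, with log2 fold changes of 0.52 in HP and 0.52 in HG. EIF4B, a helper of the helicase EIF4A, had 0.36 in HP and 0.37 in HG. TPT1, an abundant growth-linked protein, averaged 1117 ± 169 FPKM in HP, 1202 ± 53.99 FPKM in HG and 1495 ± 348 FPKM in CON at its main entry, and BTF3, a part of the nascent chain complex, had log2 fold changes of -0.37 in HP and -0.38 in HG. The list median was 0.00 in HP and -0.05 in HG against CON.

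Ribosome assembly factors and the control of translation were read from the same fit, and limma called 0 of their genes in all comparisons. Of 39 biogenesis factors, 9 were lower and 1 higher in HP and 12 lower and 0 higher in HG against CON at an unadjusted p under 0.05, with medians of -0.17 in HP and -0.14 in HG. These shares of 23.1% lower in HP and 30.8% lower in HG stood beside 5.24% and 5.5% of all genes. The shares higher were 2.56% in HP and 0% in HG, beside 22.6% and 21.8% of all genes. Fold changes were negative for 28 of the 39 and positive for 11 in HP, and negative for 26 and positive for 13 in HG. Of all genes, 31% in HP and 30.8% in HG were negative. GNL3, a nucleolar GTPase of proliferating cells, averaged 19.98 ± 2.71 FPKM in HP, 17.9 ± 1.88 FPKM in HG and 27.4 ± 5.69 FPKM in CON, and NOP10, of the box H/ACA particles, averaged 13.3 ± 1.26 FPKM in HP, 13.5 ± 1.55 FPKM in HG and 19.005 ± 3.61 FPKM in CON. The assembly factor EMG1 had log2 fold changes of -0.62 in HP and -0.41 in HG, and the kinase RIOK2 had -0.32 in HP and -0.42 in HG. Of 14 genes of RNA polymerase I, which makes the large rRNAs, 1 was higher in HP (POLR1B, 0.35) and 0 in HG, with 0 lower in both; the shares higher, 7.14% in HP and 0% in HG, were below the 22.6% and 21.8% of all genes.

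Of 23 tested genes of mTOR and translation control, 8 were higher and 1 lower in HP, and 9 higher and 0 lower in HG against CON at an unadjusted p under 0.05. MNT, a repressor of the MYC network, had log2 fold changes of 0.72 in HP and 0.81 in HG, TSC1, an inhibitor of mTORC1, had 1.04 in HP and 0.96 in HG, and LARP1, which binds the start tract of ribosomal protein mRNAs, had 0.52 in HP and 0.60 in HG. EIF2AK4, the amino acid sensing kinase, had 0.60 in HP and 0.53 in HG, and RHEB, the activator of mTORC1, had -0.70 in HP and -0.28 in HG. The list median was 0.29 in HP and 0.30 in HG, beside 0.18 in HP and 0.17 in HG for all genes, and the shares higher were 34.8% in HP and 39.1% in HG, beside 22.6% and 21.8% of all genes. Of 27 translation factors, 4 were higher and 4 lower in HP and 3 higher and 6 lower in HG. The shares lower were 14.8% in HP and 22.2% in HG, beside 5.24% and 5.5% of all genes, and the shares higher were 14.8% in HP and 11.1% in HG, beside 22.6% and 21.8%. Among them, EIF3M had log2 fold changes of -0.33 in HP and -0.41 in HG, EIF3A had 0.47 in HP and 0.39 in HG, and the reinitiation factor DENR had -0.40 in HP and -0.59 in HG. In HP against HG, 1 of the 27 translation factors was higher and 1 of the 23 genes of mTOR and translation control lower at the unadjusted threshold. These are 3.7% and 4.35%, beside 1.09% of all genes higher and 1.02% lower. They were EIF2S3, a subunit of the initiation factor that brings the first tRNA (0.27), and ATF4, the transcription factor of the amino acid response (-0.34). No gene of the other lists passed the unadjusted threshold in HP against HG.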

How the data were processed

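RNA of 15 ruminal epithelium libraries was sequenced. Per the file headers, the deposited tables give FPKM for each gene. The submitters' processing notes list HISAT2 and StringTie 1.3.4d without their roles. The genome build and annotation are not given in the sources used. Values in FPKM hold no read counts, so the depth is unknown and no counting interval could be given. Low values showed no whole-read steps.

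Deposited FPKM were taken to log2(FPKM + 1) for the 13084 of 19304 genes that reached 1 FPKM in 5 or more libraries. A model of 3 group means was fitted with limma 3.58.1 (trend, robust; R 4.3.3, statmod 1.5.0), tested on simulated data, with Benjamini-Hochberg adjustment over all genes tested and a threshold of 0.05. Shares, ratios and medians are descriptions. The members and lists were chosen with earlier results of these data known. Named members were the 4 of smallest p per subunit and comparison, the 3 highest per subunit, names ending in L or L1, those that did not pass the filter, RPSA, RPLP0, RPLP1, RPLP2 and RPS6; members outside this rule were chosen after their values were seen. From the lists, ribosomal components outside the naming rule and examples from the 3 genes of smallest p per list and comparison were named. A few genes that these rules name are not reported here. RefSeq tables of ARS-UI_Ramb_v3.0 gave names only. Alternatives covered the pseudocount, the filter, scaling, array weights, the replicate block and left-out libraries.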

Additional observations from a re-analysis of the deposited data

Results flagged for a closer look

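Within the 5 libraries of a group, 1 library lay far from the other 4 (a gap to its neighbour above 0.71 of the group's range) in 12 of 111 groups looked at. Chance alone gives this in about 1 of 20 groups, but the count is no test: RPS3A, RPL30 and RPS15A, which were chosen after their values were seen, supply 4 of the 12, and the large subunit is part of the share of all members. The share of summed FPKM was highest in HG1, at 25.2% for all members against 23.3% to 23.8% in the other HG libraries, and at 13.1% for the large subunit against 12.03% to 12.3%. In HP, RPL26L1 was highest in HP1 (20.4 FPKM, others 13.6 to 15.4), RPS13 in HP3 (508 FPKM, others 174 to 243), RPS3A in HP4 (671 FPKM, others 119 to 219) and RPS15A in HP4 (8.57 FPKM, others 2.40 to 3.46). In HG, RPS12 was highest in HG5 (2114 FPKM, others 1724 to 1831), RPS15A in HG1 (7.94 FPKM, others 2.15 to 3.22), and RPL37 was lowest in HG3 (833 FPKM, others 972 to 1025). In CON, RPL15 was highest in CON4 (1072 FPKM, others 389 to 492), RPL30 in CON3 (2805 FPKM, others 330 to 721) and the minor RPL10 entry (gene5860) in CON1 (111 FPKM, others 15.7 to 39.98). The library that stood out differed between members, with HG1 standing out in 3 groups and HP4 in 2.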

How the results depend on the processing

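Directions held in all settings run for the median log2 fold change of the members in HP and HG against CON, except after scaling to the members' own geometric mean, where the medians were 0.0058 in HP and 0.018 in HG by construction. After quantile normalization the medians were -0.11 in HP and -0.083 in HG, and the share differed by -1.24 and -0.44 percentage points from CON. Leaving out 1 library gave medians of -0.56 to -0.32 in HP and -0.47 to -0.25 in HG, and -0.20 to 0.03 in HP against HG. The members called ranged from 0 to 28 in HP and 0 to 24 in HG, and the pathway genes called from 0 to 23 in HP and 0 to 27 in HG. Pathway genes were counted in either direction, over lists with 4, 18, 27, 39, 14 and 23 genes tested. All the highest counts came without CON2, where 14% of all genes were called higher and 2.53% lower in HP, and 13.9% and 2.93% in HG. Whether the pathway calls exceeded these shares was not tested. Without CON2 and HP1, 46 members in HP and 28 in HG, and 34 and 30 pathway genes, were called. Of all genes, 2478 were called higher and 676 lower in HP (18.9% and 5.17%), and 2076 higher and 476 lower in HG (15.9% and 3.64%). That pair was picked in an earlier look as holding the most smooth muscle RNA, which the files do not bear out: the smooth muscle list summed to 299.5 FPKM in HP1 and 206 FPKM in CON2, against 5428 FPKM in HG2, so that setting stands only for leaving out these 2 libraries. Array quality weights called 9 members and 9 pathway genes in HG, with 656 of all genes higher and 212 lower (5.01% and 1.62%). The cause was not tested. For the 4 members of smallest p per subunit and comparison, a call was gained in 39 cases over all settings, all without CON2 or with array weights, and direction and call were kept in the other 609. The 609 are no measure of stability, since these members were picked by their p in the main fit. They also include fits without a library of the group outside the comparison, where the fold change cannot alter. Over all 32 named members tested, the sign of the fold change against CON differed for 12 in HP and 13 in HG relative to the members' geometric mean, for 8 and 10 after quantile normalization, and for 4 and 10 without CON1 and CON3, RPLP0 and RPSA among them each time. Median-ratio scaling moved the median of all genes to 0.00 in both comparisons with CON and gave 57 members lower in HP and 46 in HG at an unadjusted p under 0.05, with 1661 of all genes higher and 1680 lower in HP and 1669 higher and 1619 lower in HG, against 2954 and 685, and 2855 and 720. Summed FPKM averaged 477515 in HP, 487812 in HG and 551145 in CON. Dividing by it, chosen after seeing the data, gave 30 members lower in HP and 25 in HG at an unadjusted p under 0.05, with 1.97% and 2.49% of all genes lower. The members' medians were then -0.25 in HP and -0.21 in HG, beside 0.33 and 0.30 for all genes. Fold changes were negative for 70 of 78 members in HP and 63 of 78 in HG. The labels state no pairing by replicate number. After removal of the group means, same-numbered libraries had correlations of -0.199 to 0.293 (median -0.070), and other-numbered ones -0.392 to 0.363 (median 0.011). No pairing was evident from these ranges, but they cannot exclude one. With the replicate block, 0 members were called and 38 in HP and 29 in HG were lower at an unadjusted p under 0.05, as were 5.02% and 5.04% of all genes. The depth is unknown, so no counting limit on a difference could be given.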
